A study of Rattus norvegicus with 6 samples.

Results

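The cytosolic ribosomal proteins are the protein subunits of the ribosomes that translate nuclear messenger RNA. Their transcripts were examined in islets of 3-month-old and 12-month-old rats. A gene was taken in where its symbol was Rpl or Rps followed by a digit, or was Rpsa, Rplp0, Rplp1 or Rplp2, with the S6 kinases (Rps6k) left out. The symbol came from the RefSeq mRNA accession that the array design gives for a probe. By this rule 78 probes of 76 genes were found, among 13888 genes with a matched probe. For a gene with more than 1 probe the brightest one was used. A gene entered the test where at least 3 of the 6 arrays marked its probe as well above background. By this criterion 74 genes were tested, among 17941 probes in all. All 74 were above background on all 6 arrays. The probes of *Rpl11* and *Rpl27l2* were well above background on 0 arrays and were not tested.

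A ribosome has a large subunit, which joins amino acids and holds the exit tunnel of the new protein, and a small subunit, which reads the messenger RNA. The acidic proteins Rplp0, Rplp1 and Rplp2 form a stalk on the large subunit that recruits elongation factors. Islet cells make large amounts of secreted hormone, and the mTOR pathway, which senses nutrients, is known to control the translation of ribosomal protein mRNAs through a run of pyrimidines at their 5′ end, the 5′ TOP motif.

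Islets were isolated from male Wistar rats by collagenase digestion, and total RNA was hybridised to 1-colour arrays. The 12-month group and the 3-month group each held 3 arrays, and the labels name no treatment. The study names 3 rats of each age for these arrays, and its labels tie no array to a rat. The arrays of each age had been read in a scan of their own and 0 scans held both ages, so age and scan cannot be told apart in any comparison below.

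Signals are on a log2 scale after quantile normalisation, which gives every array the same distribution of values. A difference is the mean at 12 months minus the mean at 3 months, so that 1 log2 unit is a 2-fold change. The share of probes above background ran from 59.5% to 64.2% on the 12-month arrays and from 73.0% to 77.4% on the 3-month arrays. Islet markers were present: *Ins1*, *Ins2*, *Gcg* and *Sst* did not fall below 17.68 log2 units on any array. Acinar markers, which report exocrine tissue, were also above background for 10 of 10 matched genes on every array. Their summed signal ran from 21.17 to 21.66 at 12 months and from 21.12 to 21.49 at 3 months. It was above that of the 8 endocrine genes on every array. Probe brightness depends on the probe, so these sums do not measure the tissues against each other. The summed signal of 4 of the 8 marker lists did not overlap between the ages, and that of the acinar, duct, immune and red blood cell lists did. Among single probes, the groups did not overlap for 22.7% lower and 16.5% higher at 12 months. The summed signal of the 5 stellate and mesenchymal genes ran from 14.63 to 15.99 at 12 months and from 13.25 to 14.05 at 3 months, and that of the 7 nerve and Schwann genes from 11.71 to 12.08 and from 12.61 to 13.33. That of the 5 endothelial genes, 4 of them above background on all arrays, ran from 12.15 to 12.80 and from 13.05 to 13.54. The median of these endothelial genes went the other way, from 7.80 to 8.62 at 12 months and from 7.05 to 7.75 at 3 months. The summed signal of the 8 endocrine genes ran from 21.08 to 21.14 and from 20.76 to 20.91. Their part in the differences below was not tested. In whole islets, fewer cells of a type and less RNA per cell cannot be told apart.

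The start of the transcript is shown first for the members whose values are given in full below, because the 5′ TOP motif is the feature by which these mRNAs are known. Each window holds 10 bases before and 20 bases from the annotated start, on the strand of the gene, from RefSeq on GRCr8. Capitals mark the longest unbroken run of C and T. The first 4 are the members past the study's threshold, and the rest are *Rps13* and *Rps23* of the small subunit, the stalk genes *Rplp0* and *Rplp1*, and *Rpsa* and *Rps14*, which varied most between arrays of the same age together with *Rps10* and *Rpl6*.
Rpl10 (chrX:157205840-157205869, plus strand): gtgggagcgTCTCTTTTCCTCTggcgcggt
Rpl27a (chr1:172974563-172974592, plus strand): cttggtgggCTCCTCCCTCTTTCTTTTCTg
Rpl36a (chrX:102059439-102059468, plus strand): tataaacttccgttgctgctctagCCTCTC
Rpl22l1 (chr2:113683186-113683215, plus strand): gtggatatccggTTCCgagttgcgcagcgc
Rps13 (chr1:180009641-180009670, minus strand): ttcctacctcgTTCTCTCTTTgcttccaga
Rps23 (chr2:23814507-23814536, plus strand): ccttcctgCCTCTCTTCTCTCTTTCTCTCg
Rplp0 (chr12:46718371-46718400, minus strand): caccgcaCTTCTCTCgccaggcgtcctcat
Rplp1 (chr8:71290853-71290882, minus strand): cgcatgtgaTCCTTTCCTCagctgccgcca
Rpsa (chr8:128728869-128728898, plus strand): ccgcgctaCCCTggaacgggtccgtacggc
Rps14 (chr18:56498250-56498279, plus strand): ccgTCTCTCTCTTTCCggtggaggagtctg
An exact 5′ TOP start was scored as C at the first base followed by 4 bases that were each C or T, on the strand of the gene only. Promoter sequence matched 61 of the 76 members. Of these 21 (34.4%) had this start, against 2.63% of the 33469 promoters in the table. A run of at least 8 pyrimidines anywhere in the window, a feature that can include the first one, was held by 37 members (60.7%) and by 10.8% of all promoters. *Rpl10*, *Rplp0*, *Rplp1* and *Rps14* had the exact start. In *Rpl27a* and *Rps23* the longest run covered the annotated start but the first base was T. *Rpl22l1* and *Rpsa* had no run longer than 4 in this window, which says only that these letters are not there.

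The age difference had a median of -0.03 over the 21 tested members with the exact start, and of -0.01 over the 38 tested members with promoter sequence and another start. Both groups spanned falls and rises, from -1.73 to 1.57 with the exact start and from -1.45 to 1.97 without it. The values are given as a description, without a test.

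Most ribosomal protein transcripts had a small age difference after quantile normalisation. Of the 74 tested, 30 were higher and 44 lower at 12 months in sign, with a median difference of -0.03 log2 units, where all tested probes had a median of -0.17. With each array shifted to a common 75th percentile in place of quantile normalisation, 14 were higher and 60 lower. The median of the members was then -0.49 and that of all probes -0.40, so that the members lay above the median of all probes under one scaling and below it under the other. With quantile normalisation, the size of a difference was under 0.25 for 35 of the 74 members and under 0.5 for 57 of the 74. The shares of all tested probes were 22.2% and 42.7%. These counts are not given for the 75th percentile shift. The 95% interval of the difference had a median half-width of 0.57 over the members, and for 48 members it lay wholly between -1 and 1.

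At a Benjamini-Hochberg adjusted p under 0.05, 2 members (2.70%) passed in limma, *Rpl10* and *Rpl27a*, both lower at 12 months. The background was 8.37% of all tested probes in either direction and 3.05% called lower. The study's threshold, a change of more than 2-fold at a nominal p under 0.05, was applied here to the unpaired limma p, whereas its supplement names a paired test for each probe. In limma 4 members (5.41%) passed it, against 22% of all probes. With such a paired test over the replicate numbers 2 passed, *Rpl10* and *Rpl27a*, against 8.66% of all probes. The calls below are those of limma. *Rpl10*, *Rpl27a* and *Rpl36a* were lower, where 11.9% of all probes were called lower, and *Rpl22l1* was higher, where 10.1% were called higher. The members' share of calls was below the background in either direction at both thresholds, and their share called lower at the adjusted threshold was close to it. Most member probes were bright, 61 of 74 lying in the brightest 5% of tested probes. Of those 61, 0 passed either threshold, where 2.79% of the 897 probes of that range passed the adjusted one and 4.24% the study's. The median difference of the 61 was -0.035, close to the -0.038 of the 897 probes, so it did not set them apart from equally bright probes. The calls lay among the 13 less bright members, where 2 (15.4%) passed the adjusted threshold and 4 (30.8%) that of the study, against 8.67% and 23.0% of the less bright probes. Probe brightness depends on the probe and is no measure of one transcript against another.

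**Figure D1:**
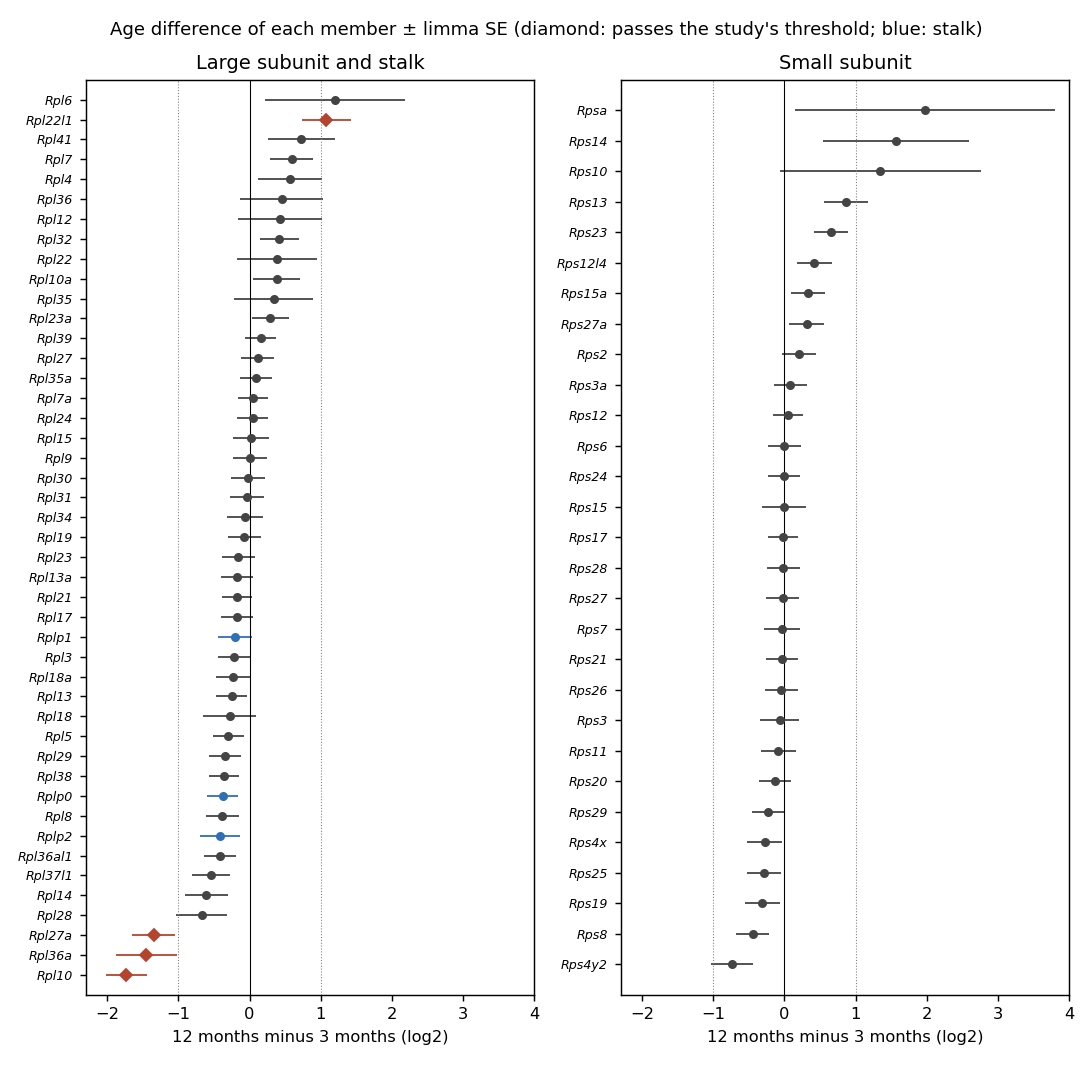
Age difference of the 74 tested ribosomal protein transcripts, 12 months minus 3 months on the log2 scale, with the limma standard error as bar, for the large subunit and stalk (left) and the small subunit (right). Diamonds mark the 4 members past the study's threshold, blue points the stalk and dotted lines a 2-fold change; most points lie near 0, and *Rpsa*, *Rps14*, *Rps10* and *Rpl6* carry the long bars.

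Among the 42 tested proteins of the large subunit the median difference was -0.05, with 19 higher and 23 lower in sign. *Rpl10* encodes a protein that joins the large subunit late in its assembly, close to the site where peptide bonds form. Its signal was 8.12, 8.58 and 8.28 on the 12-month arrays and 10.53, 9.77 and 9.87 on the 3-month arrays. Every 12-month array was below every 3-month array, and the gap between the groups was larger than the spread within either. The means were 8.33 ± 0.23 at 12 months and 10.05 ± 0.41 at 3 months (SD, n = 3), a fall of 3.31-fold. The difference was -1.73 (limma SE 0.29, adjusted p 0.0222), and the exact permutation test gave p = 0.1, which is as small as 3 arrays against 3 allow. It was at least 2-fold lower in every one of the 21 alternative settings, with a difference from -1.95 to -1.39, and it passed the adjusted threshold in 11 of them. Of the 6 fits that leave out 1 array, it passed without 12-month replicate 2 and without 3-month replicate 2, and not in the other 4, where the adjusted p ran up to 0.0968.

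*Rpl27a*, another protein of the large subunit, read 6.94, 7.46 and 6.53 at 12 months and 8.16, 8.38 and 8.43 at 3 months. The 3-month arrays lay close together and the 12-month arrays all lay below them. The means were 6.97 ± 0.47 and 8.32 ± 0.14 (SD, n = 3), a fall of 2.54-fold, with a difference of -1.35 (limma SE 0.30, adjusted p 0.0433). Of the 6 fits that leave out 1 array it passed only without 12-month replicate 2, and with normexp background correction its difference was -0.98.

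*Rpl36a*, whose protein sits near the exit site of the transfer RNA, read 7.55, 7.99 and 7.54 at 12 months and 8.35, 9.11 and 9.97 at 3 months. The groups did not overlap, although the 3-month arrays spread over more than a log2 unit. The difference was -1.45 (limma SE 0.43, adjusted p 0.0784). Its paralog *Rpl36al1* read 14.86, 14.79 and 15.06 at 12 months against 15.47, 15.32 and 15.19 at 3 months, a difference of -0.42 (limma SE 0.22, adjusted p 0.233). Both were lower on all 3 older arrays, and the difference between the paralogs was not tested.

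*Rpl22l1* was the member higher at 12 months at the study's threshold. It is a paralog of *Rpl22*, and the proteins of the pair can take each other's place in the large subunit. It read 12.76, 12.78 and 12.44 at 12 months and 11.48, 12.22 and 11.04 at 3 months. The older arrays lay close together and all above the younger ones, which spread more widely. The means were 12.66 ± 0.19 and 11.58 ± 0.60 (SD, n = 3), a rise of 2.11-fold. The difference came to 1.08 (limma SE 0.35, adjusted p 0.0910). Without 12-month replicate 1 or without 3-month replicate 3 it no longer passed the study's threshold, nor with the 75th percentile shift, where its difference was 0.89. *Rpl22* itself differed by 0.39 (limma SE 0.56, adjusted p 0.652), with signals from 12.74 to 14.30 at 12 months and from 12.26 to 13.88 at 3 months that overlapped almost wholly.

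**Figure D2:**
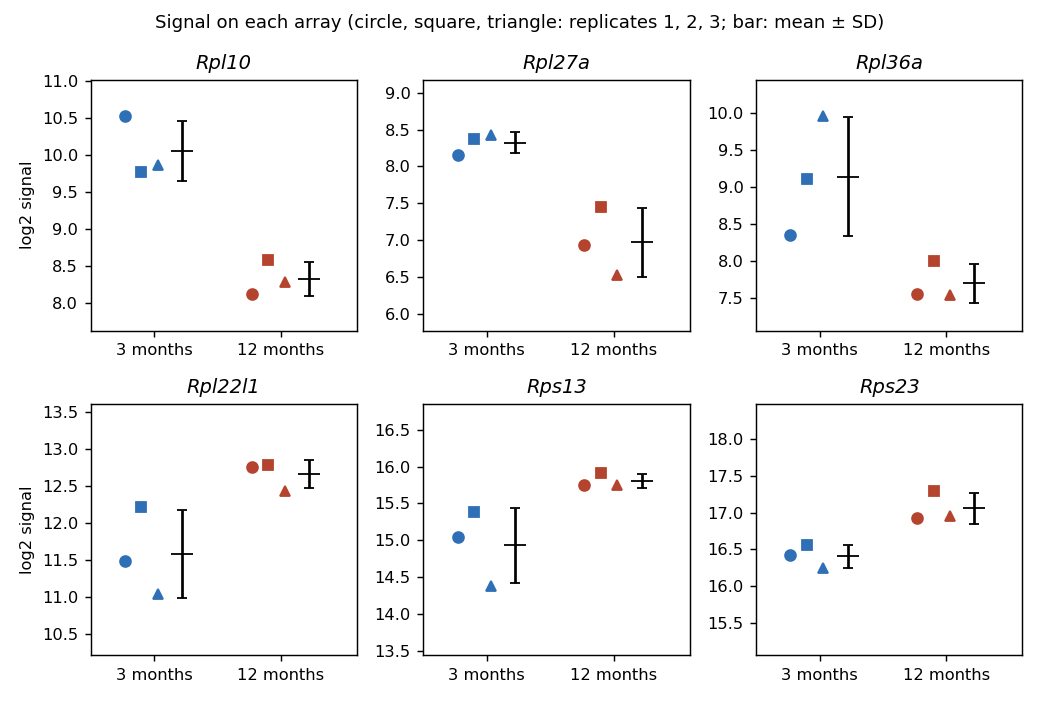
log2 signal of 6 members on each array, 3-month arrays in blue and 12-month arrays in red, with circle, square and triangle for replicates 1, 2 and 3 and bars for the mean and SD of 3 arrays, all panels drawn to one scale length. *Rpl10*, *Rpl27a* and *Rpl36a* are lower and *Rpl22l1*, *Rps13* and *Rps23* higher on all 3 of the 12-month arrays.

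*Rpl5*, which carries the 5S ribosomal RNA and can bind the p53 regulator Mdm2, differed by -0.30 (limma SE 0.22, adjusted p 0.360) and was lower on all 3 older arrays. *Rpl23*, which also binds Mdm2, differed by -0.16 (limma SE 0.23, adjusted p 0.664), with groups that overlapped. *Rpl3*, one of the largest proteins of the subunit, differed by -0.21 (limma SE 0.23, adjusted p 0.547). The remaining genes of the large subunit ran from -0.67 for *Rpl28* to 1.20 for *Rpl6*, of which the second is described below with the arrays that carry it.

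The 3 stalk transcripts were all lower in sign, with a median difference of -0.38, and 0 passed a threshold. At an unadjusted p under 0.05 there were 0 in limma and 1 by the methods' t-test. *Rplp0*, often used as a reference transcript, read 17.03, 17.10 and 16.92 at 12 months and 17.48, 17.32 and 17.39 at 3 months. Its groups did not overlap, and the difference was -0.38 (limma SE 0.21, adjusted p 0.256). *Rplp2* differed by -0.42 (limma SE 0.28, adjusted p 0.329) and *Rplp1* by -0.20 (limma SE 0.24, adjusted p 0.575), both with overlapping groups. A second probe of *Rplp1*, printed on 10 spots, gave -0.27, and the pair of probes of *Rpl13a* gave -0.17 and -0.27.

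The 29 tested proteins of the small subunit had a median difference of -0.01, with 11 higher and 18 lower in sign, and 0 passed either threshold. At an unadjusted p under 0.05 there were 3 in limma, against 32.4% of all probes, and 3 by the methods' t-test. *Rps6*, the substrate of the S6 kinases, read 17.12, 17.18 and 17.04 at 12 months and 16.90, 17.16 and 17.28 at 3 months. The mean was 17.11 at both ages, with SDs of 0.07 and 0.19 (n = 3). The 95% interval of its difference ran from -0.54 to 0.54. *Rps3*, at the entry of the messenger RNA channel, differed by -0.07 (limma SE 0.27) and *Rps27*, a zinc-finger protein, by -0.02 (limma SE 0.24). *Rps27a*, made as a fusion with ubiquitin, differed by 0.31 (limma SE 0.24, adjusted p 0.392).

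*Rps4x* and *Rps4y2*, which encode forms of the same small subunit protein, were both lower in sign at 12 months. *Rps4y2* was at 9.92, 10.27 and 10.66 at 12 months and 11.33, 11.02 and 10.71 at 3 months, a difference of -0.74 (limma SE 0.30, adjusted p 0.143, unadjusted p 0.0436) with groups that came close but did not overlap. *Rps4x* differed by -0.27 (limma SE 0.25, adjusted p 0.457), with overlapping groups. The difference between these paralogs was not tested.

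Over all 74 members, 7 had an unadjusted p under 0.05, 4 lower and 3 higher, against 32.4% of all tested probes. Of the members that did not pass a threshold, *Rps13* and *Rps23* are named here after their values were seen. *Rps13* read 15.75, 15.91 and 15.76 at 12 months and 15.04, 15.38 and 14.38 at 3 months, a difference of 0.87 (limma SE 0.31, adjusted p 0.111). *Rps23*, a protein of the decoding centre, read 16.92, 17.30 and 16.95 against 16.42, 16.56 and 16.24, a difference of 0.65 (limma SE 0.24, adjusted p 0.118). Both were higher on every older array. With the 75th percentile shift the difference of *Rps23* was 0.14 and that of *Rps13* 0.48. The groups did not overlap for 14 members lower (18.9%) and 5 higher (6.76%) at 12 months, where the background was 22.7% of probes lower and 16.5% higher. The 5 were *Rpl22l1*, *Rps13*, *Rps23*, *Rps15a* and *Rps12l4*.

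Arrays of the same age differed by more than the ages did for some members. A set of 9 members was lower on 12-month replicate 2, and on 3-month replicate 3, than on the mean of the other arrays of the age, by over 1 log2 unit in both cases. The 9 (12.2% of the tested members) were *Rpsa*, *Rps10*, *Rps14*, *Rpl6*, *Rpl12*, *Rpl36*, *Rpl35*, *Rpl22* and *Rpl4*, chosen after their values were seen and given without a test. The same held for 3.51% of all probes. Of the others, *Rpl41* came nearest to this limit, at -0.85 and -1.40, and *Rpl35* lay just inside it at -1.63 and -1.03.

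*Rpsa*, the small subunit protein also known as the laminin receptor precursor, read 11.94, 6.68 and 14.04 at 12 months and 10.54, 8.81 and 7.40 at 3 months. It ranged over 7.35 log2 units across the 6 arrays, the widest span of any tested member. *Rps10* read 11.71, 8.30 and 13.63 against 11.27, 10.26 and 8.07, and *Rps14* read 13.54, 11.16 and 14.43 against 12.66, 11.99 and 9.77. For each of the 3 the highest array and the lowest 12-month array were 12-month replicates 3 and 2. *Rpl6* followed the same order, at 13.86, 11.26 and 14.60 against 13.18, 12.25 and 10.68. The set of 9 had a median range of 2.18 log2 units over the arrays, and the other 65 members one of 0.56.

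The age differences of the 9 were all positive, from 0.34 to 1.97, and 0 passed a threshold, with limma SEs of 0.45 to 1.83 and adjusted p of 0.315 to 0.688. Under the 75th percentile shift, 8 of the 9 stayed positive. Without 12-month replicate 2, a total of 8 members passed the study's threshold, *Rpsa*, *Rps10*, *Rps14* and *Rpl6* with the 4 named above, against 27.2% of all probes in that fit. *Rpsa* then differed by 4.07, and without 12-month replicate 3 by 0.39 at the lowest. Without both 12-month replicate 2 and 3-month replicate 3 the differences of the 9 ran from 0.34 to 3.31, with adjusted p-values from 0.102 to 0.485.

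**Figure D3:**
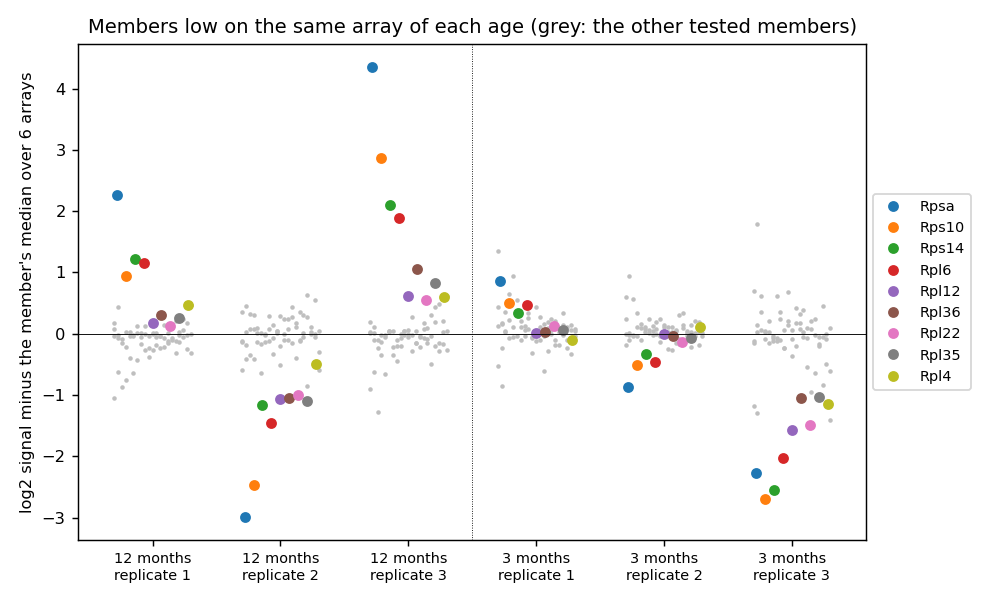
Signal of each tested member on each array, minus the median of that member over the 6 arrays, in log2 units; coloured points are the 9 members low on both 12-month replicate 2 and 3-month replicate 3, grey points the other 65. The coloured points lie below 0 on those arrays and are highest on 12-month replicate 3.

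Some of the other 65 members also ranged widely over the arrays, *Rpl41* by 2.02 log2 units, *Rpl10* by 2.40 and *Rpl36a* by 2.43. Across the 74 members, the deviation of 12-month replicate 2 from its group and that of 3-month replicate 3 from its group correlated with r of 0.83, against 0.36 across the 17876 tested probes with a value on every array. Members share the arrays and are not independent, and the 74 include the 9 chosen for low values of these same deviations. The correlation is therefore a description, and its value without the 9 is not given here. Other genes of protein synthesis were low on both arrays as well, 7 of 113 (6.19%) in the lists given below, against 3.51% of all probes. *Eef1d*, *Nop56* and *Mrps11* were the furthest down on 12-month replicate 2, at -5.27, -4.06 and -3.47. Of the cell type markers, 3 of 10 acinar genes, 1 of 4 duct genes and 1 of 7 immune genes were low in this way. The count was 0 for the 8 endocrine, 5 endothelial, 5 stellate and mesenchymal, 7 nerve and Schwann and 3 red blood cell genes. The lists are short, and their counts were not tested against the 3.51% of all probes. The summed acinar signal was 21.17 log2 units on 12-month replicate 2 and 21.60 and 21.66 on the other 12-month arrays. It was 21.12 on 3-month replicate 3 and 21.49 and 21.46 on the other 3-month arrays, so that it was lowest on the same arrays. The summed duct signal was 13.12 on 12-month replicate 2, against 14.50 and 14.01, and 13.79 on 3-month replicate 3, against 14.29 and 13.70. The part of tissue make-up in the spread of the 9 members was not tested.

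**Figure D4:**
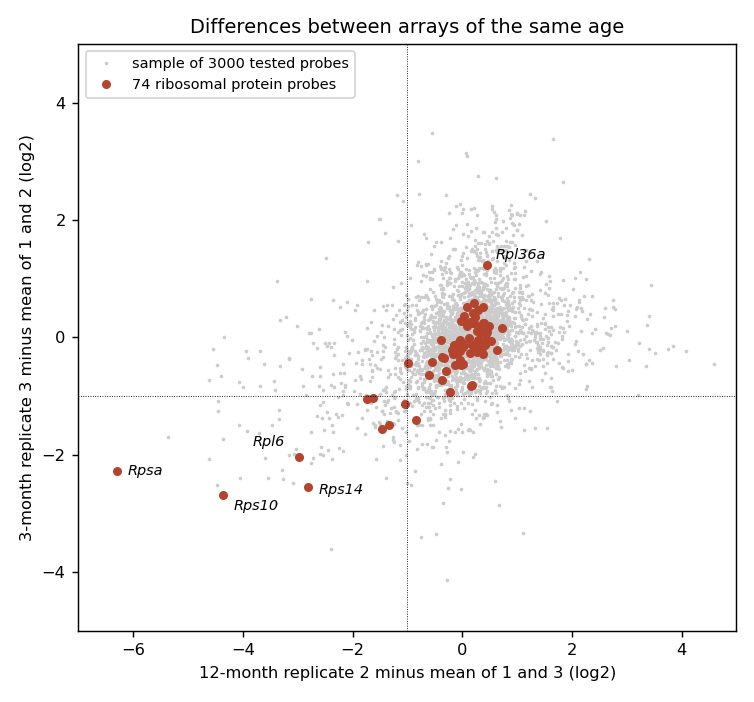
Deviation of 12-month replicate 2 from the mean of the other 12-month arrays against the deviation of 3-month replicate 3 from the mean of the other 3-month arrays, in log2 units, for the 74 tested members (red) and a sample of 3000 tested probes (grey). Dotted lines mark 1 log2 unit below the other arrays, and 9 members lie below both.

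The other genes of protein synthesis were read from lists chosen for their roles. Of 58 tested mitochondrial ribosomal proteins, which serve the separate ribosomes of mitochondria, 2 passed the adjusted threshold (3.45%, against 8.37% of all probes), both lower. *Mrps35* read a mean of 5.19 ± 0.38 at 12 months and 7.75 ± 0.30 at 3 months (SD, n = 3). It was well above background on 5 of the 6 arrays, and its measured signal fell by 2.56 (limma SE 0.30, adjusted p 0.00882). *Mrpl44* differed by -0.98 (limma SE 0.22, adjusted p 0.0450). The list had a median of -0.16. At the study's threshold 3 of its members rose and 1 fell (6.90% in all, against 22% of all probes).

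Genes joined to or bound by the ribosome had 2 calls of 8, both higher, where 5.32% of all probes were called higher. *Tpt1*, a translationally controlled protein whose mRNA also has a 5′ TOP start, differed by 1.87 (limma SE 0.27, adjusted p 0.0151), and *Npm1*, a nucleolar chaperone of ribosome assembly, by 1.53 (limma SE 0.28, adjusted p 0.0276). *Fau*, which encodes a ribosomal protein fused to a ubiquitin-like protein, differed by 0.02, and *Rack1*, a scaffold on the small subunit, by -0.12, and neither was called. Of 26 biogenesis genes 2 passed (7.69%), both higher, a share near that of all probes called in either direction. *Sbds*, which helps release the factor that keeps the large subunit from joining the small one, rose from 9.17 ± 0.82 to 11.70 ± 0.04 (SD, n = 3), or by 2.53 (limma SE 0.42, adjusted p 0.0211). *Utp15*, of the complex that processes small subunit RNA, differed by 1.46 (limma SE 0.29, adjusted p 0.0328).

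Of 10 tested elongation genes 0 passed the adjusted threshold and 0 the study's, with a median of 0.39. At an unadjusted p under 0.05 there were 2 in limma, where 32.4% of all probes passed, and 3 by the methods' t-test. *Eef2* differed by -0.01 and *Eef1a1* by 0.59. Of 11 genes of the S6 kinase and mTOR list, 1 passed the adjusted threshold (9.09%), a share near the 8.37% of all probes. This was *Rptor*, the scaffold of mTOR complex 1, which fell by 1.12 (limma SE 0.23, adjusted p 0.0341). *Rps6kb1*, an S6 kinase, differed by -0.48 (limma SE 0.25, adjusted p 0.220), lower on all 3 older arrays. *Eif4ebp2*, an inhibitor of cap-dependent translation and above background on 5 arrays, was higher at the study's threshold with a difference of 2.02 (limma SE 0.66, adjusted p 0.0958). At that threshold 18.2% of the list passed in either direction, against 22% of all probes.

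**Figure D5:**
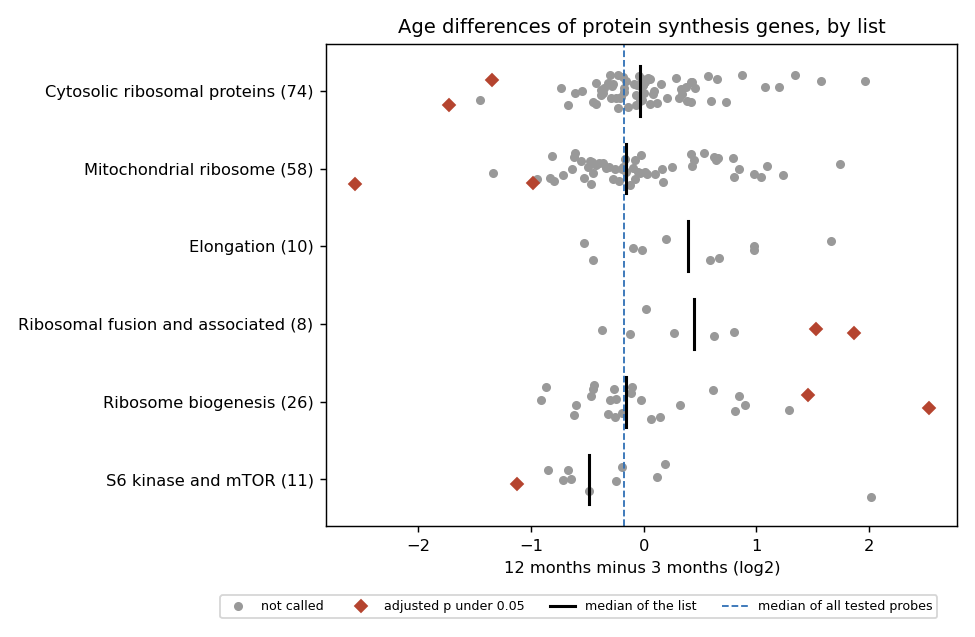
Age difference in log2 units of each tested gene in 6 lists, with the number of genes in brackets; diamonds mark an adjusted p under 0.05, black bars the median of a list and the dashed line the median of all tested probes at -0.17. The ribosomal proteins have 2 diamonds, both lower, and the ribosome-associated and biogenesis lists have 2 each, both higher.

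Many ribosomal protein genes have processed copies that differ from them by few bases. The RefSeq table lists 839 pseudogenes under symbols of this kind, with copies named for 71 of the 76 members and a median of 11 copies a member. For *Rpl10*, *Rpl27a* and *Rpl36a* it lists 14, 12 and 14 copies, for *Rpl22l1* 2 and for *Rpsa* 25. Probe sequences were not used here, so that the signal of a gene and of its copies cannot be told apart. The table also lists 298 protein-coding entries under the rule, of which 100 had a RefSeq mRNA accession of the NM kind. Of those 100, 24 had no probe matched by accession and were not analysed here, among them *Rpl26*, *Rps18* and *Rps27l*.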

How the data were processed

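Ribosomal protein transcripts were measured in islets on 6 arrays, 3 at each age, with age taken from the labels. Per the file headers, the scanner files were made with Agilent Feature Extraction 11.0.1.1, and their deposited spot intensity is background-subtracted and not normalised between arrays. The array design was made on another genome build than that of the RefSeq table. The authors also deposited quantile-normalised log2 values of 12145 mRNA probes, used as an alternative, with a filter not given in the sources used here. Arrays have no read depth, and their number limits the precision. The members, lists, thresholds and tests were chosen with earlier results of these data known.

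Spots marked as outliers were left out, the processed intensity was put on the log2 scale and averaged per probe, and values were quantile normalised over 24684 probes. A probe was kept when at least 3 of 6 arrays were well above background, and 17941 were tested. The 12-month and 3-month arrays were compared in R 4.3.3 by limma 3.58.1, with lmFit and eBayes, two-sided and without a block, and p-values were adjusted by Benjamini-Hochberg over every tested probe. Recovery by limma of known changes was checked on simulated arrays. Symbols came from accessions matched without version to RefSeq of GRCr8 (14274 of 15321 mRNA probes), and some now name a copy, such as *Rpl36al1*. Named were the members past a threshold, genes set by role (*Rplp0*, *Rplp1*, *Rplp2*, *Rpsa*, *Rps6*, *Rps3*, *Rps27a*, *Rpl10*, *Rpl5*, *Rpl3*, *Rpl23*) and paralogs, and other names were chosen after their values were seen.

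The alternatives were the 75th percentile shift, normexp background correction with an offset of 50, the authors' table, other filters on dim probes, robust variances with an intensity trend, array weights, replicate blocks, the 4 arrays of a shared name ending, leaving out each array, plain and paired t-tests, the mean of all probes of a gene, and an adjusted p under 0.1. Array weights estimated gene by gene and the fit without 12-month replicate 2 and 3-month replicate 3 were chosen after seeing the data. Since 1 of the 12-month arrays carries no number, its pair was formed by elimination.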

Additional observations from a re-analysis of the deposited data

How the results depend on the processing

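Where 2 members passed the adjusted threshold, 5 did with array weights, 4 with weights estimated gene by gene and 4 at a limit of 0.1. The share of all probes called was 8.37%, and rose to 31.7% and 22.6% with these weights, so that the members stayed below it. There were 0 with the 4 arrays of a shared name ending, with the paired t-test, without both 12-month replicate 2 and 3-month replicate 3, and with the methods' t-test, fits that called 0%, 0.00558%, 1.60% and 2.42% of all probes. With an intensity trend the 2 were *Rpl10* and *Rps23*. With 1 array left out the adjusted count was 0 to 2: it was 0 without 12-month replicate 1, without 12-month replicate 3, without 3-month replicate 1 and without 3-month replicate 3, and 1 without 3-month replicate 2. Against 4 at the study's threshold, it was 7 with array weights, 2 with the paired t-test and 6 without both arrays, where 27.5%, 8.66% and 24.1% of all probes passed against 22%, and 3 to 8 with 1 array left out, the 8 without 12-month replicate 2. The planned array weights gave 12-month replicate 1 a weight of 8.56. The median of the members was -0.49 with the 75th percentile shift, and between -0.10 and -0.006 when 1 array was left out.

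Between the ages, the deviations of arrays with the same replicate number correlated at -0.01, -0.31 and -0.26 across probes. With 3 arrays per age these values cannot tell whether the arrays were paired. With the replicate block of 3 pairs 0 members passed the adjusted threshold and 4 the study's. With the replicate block of the 2 numbered pairs these counts were 0 and 2. The shares of all probes were 0.541% and 19.8% with 3 pairs, and 0% and 15.5% with the numbered pairs.

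The differences of 6 named members that were not called changed sign. *Rps27a* was at -0.10 with the 75th percentile shift. *Rps27* was at 0.033 with normexp, 0.040 with the numbered pairs and 0.13 with the 4 arrays. *Rps6* was at 0.0031 on the authors' values, 0.00015 with array weights, 0.052 without both arrays and 0.12 with the numbered pairs. *Rps3* was at 0.038 with array weights and 0.024 with weights per gene. With the numbered pairs *Rpsa* was at -0.37 and *Rpl22* at -0.44. With 1 array left out *Rps3* ran from -0.21 to 0.11, *Rps6* from -0.11 to 0.084, *Rps27* from -0.15 to 0.082 (-0.19 without both arrays) and *Rpl22* from -0.11 to 0.83. Why these values moved was not tested.

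Of 378 values of named members under 21 alternatives, 330 kept their direction and their side of the adjusted threshold. Only *Rpl10* and *Rpl27a* were called among them, so most of the 330 are values that stayed on the side not called. *Rpl10* passed the adjusted threshold in 11 of the 21 alternatives and *Rpl27a* in 9. The tested members carried the mark of well above background on all 6 arrays, and *Rpl11* and *Rpl27l2* on 0. The median raw signal of the negative control spots ran from 89.5 to 91 on the 12-month arrays. It ran from 29.5 to 31 on the 3-month arrays. The part of this background in the differences of the less bright members was not tested. A block by scan could not be fitted.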
